A study of Mus musculus with 6 samples.

Results

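Transcripts of 10 surface proteins were followed in cultured mouse muscle stem cells that had received prostaglandin E2 (PGE2), a lipid mediator of injured tissue, or DMSO as Vehicle for 24 h. The 10 are the antigens by which the cells were sorted and adhesion proteins by which muscle stem cells, also called satellite cells, are recognised. They were found by exact gene symbol among 43283 genes in the deposited table, and each symbol matched 1 row. Itga7 and Cd34 encode the antigens selected for. Ptprc, Ly6a, Pecam1 and Itgam encode CD45, Sca1, CD31 and CD11b, which were selected against. Itgb1, Vcam1, Cdh15 and Sdc4 are the adhesion genes.

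The series holds 6 libraries, 3 per group, numbered by the labels as replicates 1 to 3. All came from hindlimb muscle of female C57BL/6 mice, 8 to 12 weeks old in the sample labels and 2 to 4 months old in the series' design text. The sorted cells of both groups were kept in a medium of 20% fetal bovine serum, 40% low glucose medium and 40% F-10, and the groups differed by DMSO against PGE2. RNA came from 5000 to 10000 cells per library. The labels name no dose of PGE2, and they do not say whether replicates came from separate animals or sorts, so part of the spread that the p-values measure may be technical.

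Satellite cells lie between the muscle fibre and its basal lamina. Integrin α7β1 binds laminin in that lamina, M-cadherin and VCAM1 serve contacts between cells, and syndecan-4 is a heparan sulfate proteoglycan that acts as a co-receptor for growth factors and matrix. The sort removes leukocytes by CD45 and CD11b, endothelial cells by CD31, and fibro-adipogenic cells and part of the endothelium by Sca1. The sort acts on protein at the cell surface, whereas the values here are RNA measured after a day in culture, in TPM, a gene's share of a library corrected for its length.

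None of the 9 members that could be tested passed limma's test of PGE2 against Vehicle at an adjusted p under 0.05, and the groups overlapped for all 10. A gene was tested where 3 or more libraries reached 1 TPM. Of the 12781 such genes 0% passed, and the groups did not overlap for 8.01%. The adhesion genes Sdc4 and Itgb1 were the most abundant, with means over the 6 libraries of 274 and 224 TPM, followed by Vcam1 and then Cd34 in all 6 libraries. Itga7 was below Cd34 in all 6, above Ptprc in 4 of 6 and above Ly6a in 5 of 6. Cdh15, which encodes M-cadherin, was below 6 TPM throughout. The 4 antigens selected against stayed at or below 13.55 TPM each.

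The label of muscle stem cell was checked against a list of 7 genes that mark the lineage. Pax7, the transcription factor that defines satellite cells, lay between 23.91 and 66.99 TPM, the myogenic regulator Myf5 between 119.83 and 302.91 TPM, Myod1 between 89.46 and 146.22 TPM and the intermediate filament gene Des between 34.95 and 107.02 TPM. The other 3 genes of that list were low: Msc ran from 0 to 10.04 TPM, Chodl from 0 to 2.99 TPM and the growth factor receptor gene Fgfr4 from 1.18 to 5.44 TPM. Of genes that mark other cells, some were near 0 and some were not. The endothelial cadherin Cdh5 reached 0.22 TPM and Kdr 1.57 TPM, the macrophage gene Lyz2 0.43 TPM and Tyrobp 1.12 TPM, the fibro-adipogenic genes Pdgfra 1.45 TPM and Dcn 1.37 TPM, and the pericyte gene Rgs5 1.47 TPM. In contrast, the leukocyte gene Laptm5 reached 6.45 TPM, the endothelial gene Eng 6.44 TPM, the smooth muscle actin gene Acta2 ran from 4.77 to 13.43 TPM and the collagen gene Col3a1 from 15.31 to 36.45 TPM. The genes below 1 TPM in all 6 libraries were 8 of 16 leukocyte, 5 of 12 endothelial, 4 of 10 fibro-adipogenic and 3 of 7 pericyte and smooth muscle genes. Mitochondrial genes held 20.9% to 33.6% of the TPM in the libraries, and 15400 to 19677 genes were above 0. The read depth cannot be recovered from TPM, and no counting interval is given. In bulk RNA, fewer cells of a type and less RNA per cell cannot be told apart.

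**Figure D1:**
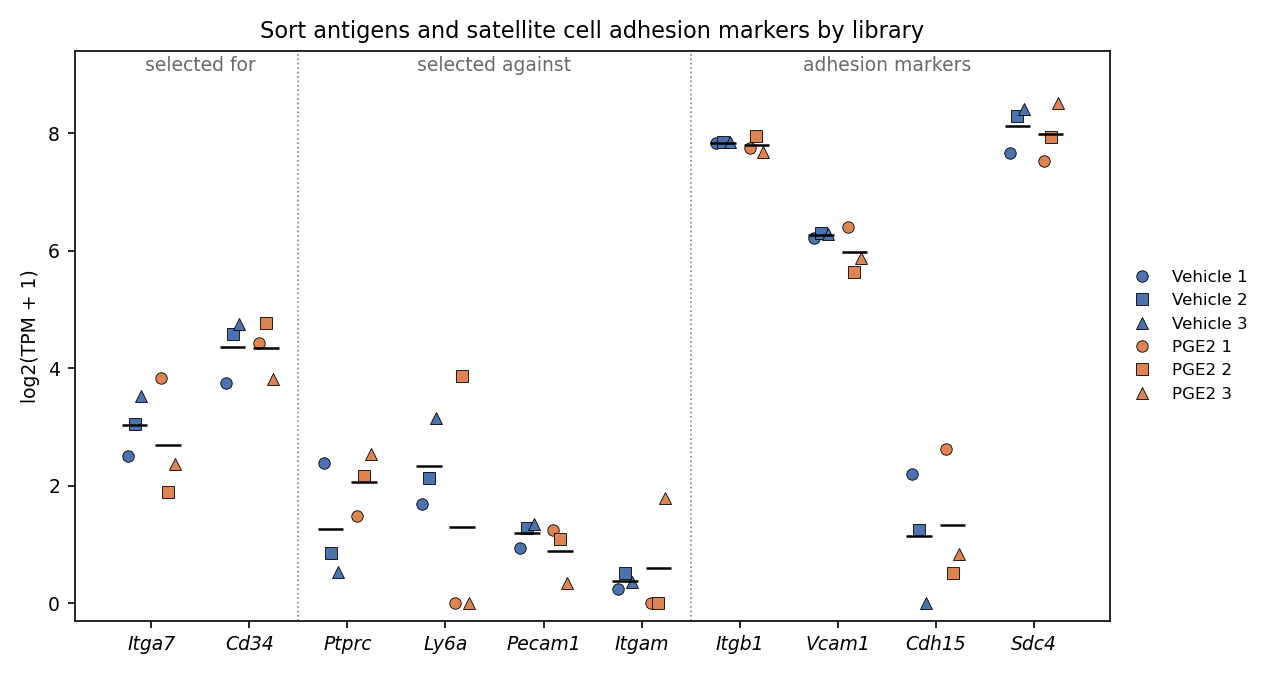
Level of each of the 10 genes on the log2(TPM + 1) scale (vertical axis) in the 3 Vehicle and 3 PGE2 libraries, with the group mean of the log values as a bar. Itgb1, Sdc4 and Vcam1 lie above the rest in every library, and the colours overlap for all 10 genes.

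The antigens selected for were both present, at different levels. Cd34 encodes a sialomucin of stem and progenitor cells and of endothelium (mm10 chromosome 1, 194938819 to 194961279, plus strand). Values are given for replicates 1, 2 and 3 in that order. It was at 12.41, 22.83 and 25.80 TPM across the Vehicle libraries and at 20.37, 26.16 and 13.11 TPM across the PGE2 libraries. Vehicle 1 and PGE2 3 were low and the other 4 libraries were close together, so the groups overlapped. The means were 20.3 ± 7.03 TPM in Vehicle and 19.9 ± 6.54 TPM in PGE2 (SD, n = 3 each). The log2 change of Cd34, taken on log2(TPM + 1) as the PGE2 mean minus that of Vehicle, was -0.02 ± 0.43 (SE), with a 95% confidence interval that ran from 0.507-fold to 1.92-fold. The antisense gene Gm16897 overlaps 2.03% of the exonic bases of Cd34 and was at or below 1.95 TPM.

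Itga7 encodes the α7 chain of the laminin receptor (chromosome 10, 128933818 to 128958282, plus strand). It had Vehicle values of 4.68, 7.24 and 10.45 TPM and PGE2 values of 13.16, 2.69 and 4.18 TPM. PGE2 1 was the highest and PGE2 2 the lowest of the 6 libraries, a 4.89-fold range within 1 group that took in all Vehicle values. Its log2 change was -0.33 ± 0.61 (SE), with an interval from 0.309-fold to 2.06-fold. Without PGE2 2 it became 0.076, so the sign rested on 1 library, and without PGE2 1 it became -0.89. Among the 12781 genes tested, Itga7 ranked between percentiles 25.8 and 54.4 of a library, and Cd34 between percentiles 57.2 and 73.6. Cd34 was above Itga7 in 6 of 6 libraries, by 1.55-fold in PGE2 1 and 9.72-fold in PGE2 2.

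The β1 chain, with which α7 pairs, was far more abundant and far steadier. Itgb1 (chromosome 8, 128685654 to 128733200, plus strand) is shared by many integrin α chains. It was at 225.34, 229.15 and 228.25 TPM across the Vehicle libraries and at 214.69, 245.24 and 203.51 TPM across the PGE2 libraries. The Vehicle libraries lay inside the range of the PGE2 libraries, and the highest value was 1.21 times the lowest. Its log2 change was -0.05 ± 0.26 (SE), and the interval from 0.646-fold to 1.45-fold was the narrowest of the 9 tested members. The ratio of Itgb1 to Itga7 was 48.1, 31.7 and 21.8 across the Vehicle libraries and 16.3, 91.2 and 48.7 across the PGE2 libraries, while Itgb1 itself spanned 1.21-fold and Itga7 4.89-fold.

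Sdc4 (chromosome 2, 164424247 to 164443887, minus strand) had the highest mean of the 10 genes and varied more than Itgb1. It had Vehicle values of 201.71, 310.57 and 340.32 TPM and PGE2 values of 183.51, 243.40 and 363.07 TPM. The lowest and the highest library were both from PGE2, and the log2 change was -0.13 ± 0.35 (SE; interval 0.535-fold to 1.56-fold). Sdc4 was above Itgb1 in 3 of 6 libraries, so these neighbours in level did not differ beyond their spread.

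The level of Sdc4 moved with the share of mitochondrial RNA. In replicates 1, 2 and 3 that share was 20.9%, 28.3% and 33.6% with Vehicle and 23.0%, 25.5% and 30.4% with PGE2. Vehicle 1 and PGE2 1 were the lowest 2 libraries in both measures, and Vehicle 3 and PGE2 3 the highest 2. The part of RNA quality or composition in this was not tested.

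Vcam1, an immunoglobulin-family adhesion receptor of satellite cells (chromosome 3, 116109949 to 116129688, minus strand), was at 72.83, 77.80 and 77.02 TPM across the Vehicle libraries. With PGE2 it was at 83.59, 48.60 and 57.28 TPM. PGE2 2 and PGE2 3 lay below all Vehicle libraries and PGE2 1 above them. The means were 75.9 ± 2.67 TPM in Vehicle and 63.2 ± 18.2 TPM in PGE2 (SD, n = 3 each), with a log2 change of -0.30 ± 0.31 (SE; interval 0.505-fold to 1.31-fold). Without PGE2 1 the log2 change was -0.52, and without PGE2 2 it was -0.13.

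Cdh15 (chromosome 8, 122847966 to 122867397, plus strand) was low in cells that expressed the myogenic regulators. It was at 3.56, 1.38 and 0 TPM across the Vehicle libraries and at 5.15, 0.43 and 0.79 TPM across the PGE2 libraries. Replicate 1 was the highest of each group, and 3 of 6 libraries were below 1 TPM. Its log2 change of 0.18 ± 0.77 (SE) had an interval from 0.346-fold to 3.71-fold, and it became -0.39 without Vehicle 3, the library listed at 0. Exact zeros in such tables can be failed estimates, although none of 13 housekeeping genes was at 0 in any library. N-cadherin, encoded by Cdh2, was the more abundant cadherin, between 57.61 and 99.10 TPM.

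**Figure D2:**
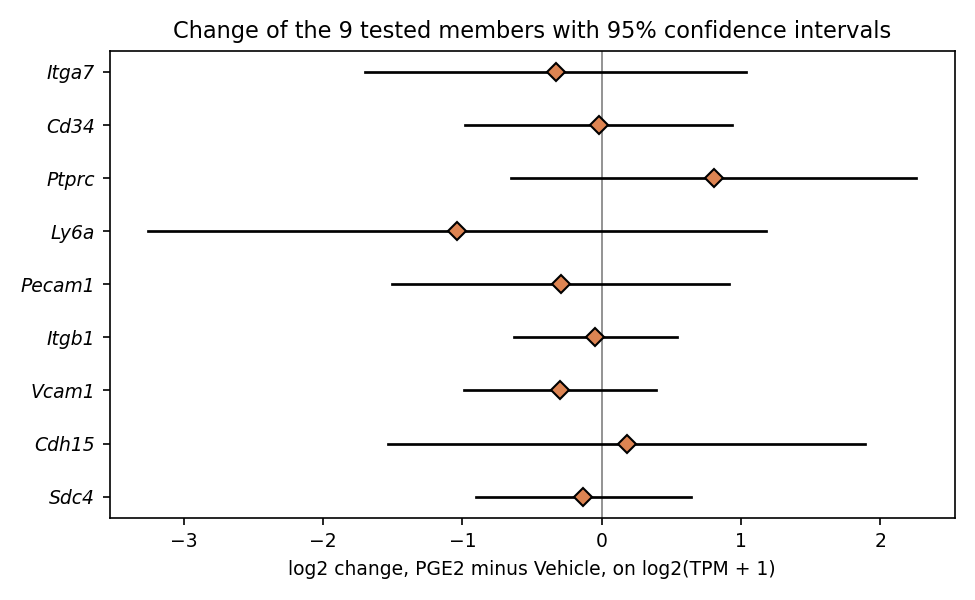
Log2 change of the 9 tested genes, PGE2 minus Vehicle in log2(TPM + 1) (horizontal axis), with 95% confidence intervals from limma as lines. Every interval spans 0, the narrowest being that of Itgb1 and the widest that of Ly6a.

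The antigens selected against were low and irregular. Their summed level was 7.50, 6.05 and 10.2 TPM across the Vehicle libraries and 3.16, 18.2 and 7.52 TPM across the PGE2 libraries. The summed level of Itga7 and Cd34 was higher in each library, between 17.1 and 36.3 TPM, and in PGE2 2 the sums were 18.2 and 28.9 TPM. Cd34 was above each of the 4 in all 6 libraries, whereas Itga7 was below Ptprc in PGE2 2 and PGE2 3 and below Ly6a in PGE2 2. The mean sum of the 4 was 7.92 ± 2.11 TPM in Vehicle and 9.61 ± 7.72 TPM in PGE2 (SD, n = 3 each), and without PGE2 2 the latter was 5.34 TPM.

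Ptprc encodes CD45, the tyrosine phosphatase common to leukocytes (chromosome 1, 138062861 to 138175708, minus strand). It had Vehicle values of 4.19, 0.81 and 0.45 TPM and PGE2 values of 1.80, 3.47 and 4.81 TPM. Vehicle 1 lay among the PGE2 libraries, and Vehicle 2 and Vehicle 3 below them. The log2 change was 0.81 ± 0.65 (SE; interval 0.638-fold to 4.79-fold), and it was 1.37 without Vehicle 1 and 0.45 without Vehicle 3. In a list of 16 other leukocyte genes, 2 reached the filter and the summed level was 2.97 to 8.46 TPM in Vehicle and 8.08 to 11.02 TPM in PGE2. Cd52, C1qa, C1qb, Itgb2 and Coro1a were listed at 0 in all 6 libraries. Others were not: the highest value was 6.45 TPM for Laptm5 (PGE2 1), 4.07 TPM for Csf1r and 3.30 TPM for Cd14 (both PGE2 3), and 2.39 TPM for Cd68 (Vehicle 1). The part of leukocyte RNA in the Ptprc values was not tested.

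Itgam encodes the αM chain, CD11b, of myeloid cells (chromosome 7, 128062640 to 128118491, plus strand). It was at 0.18, 0.43 and 0.28 TPM across the Vehicle libraries and at 0, 0 and 2.44 TPM across the PGE2 libraries. PGE2 3 stood apart and was the only library above 1 TPM, so Itgam was the 1 member not tested. Itgb2 encodes the β2 chain with which αM forms its receptor, and it was listed at 0 in PGE2 3 too, although the summed leukocyte genes were highest there, at 11.02 TPM. In the GENCODE M21 annotation, the gene model Gm49368 on the same strand covers 68.7% of the exonic bases of Itgam. Gm49368 was not matched in the deposited table, so how reads there were assigned is not known.

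Pecam1 encodes CD31, an adhesion molecule of endothelium (chromosome 11, 106654217 to 106750628, minus strand). It had Vehicle values of 0.91, 1.43 and 1.55 TPM and PGE2 values of 1.36, 1.14 and 0.27 TPM. Only PGE2 3 stood below the Vehicle range, and the log2 change was -0.29 ± 0.54 (SE; interval 0.352-fold to 1.89-fold), or -0.02 without that library. Of 12 other endothelial genes, 2 reached the filter. Their summed level was 3.85 to 9.21 TPM in Vehicle and 6.35 to 19.84 TPM in PGE2, where Emcn alone, an endothelial sialomucin, read 15.27 TPM in PGE2 3. Pecam1 was lowest in that same library. In PGE2 2 the sum was 12.83 TPM with Emcn at 0.81 TPM. Eng was higher in each PGE2 library (2.55, 6.44 and 2.54 TPM) than in each Vehicle library (1.57, 1.10 and 0.96 TPM). It was 1 of the 2 endothelial genes tested and did not pass, and the groups overlapped for the other, Tek. Over all tested genes, groups did not overlap for 8.01%.

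Ly6a encodes Sca1, a GPI-anchored protein of the Ly6 family (chromosome 15, 74994877 to 74998031, minus strand). It was at 2.22, 3.38 and 7.92 TPM across the Vehicle libraries and at 0, 13.55 and 0 TPM across the PGE2 libraries. The PGE2 libraries held both the highest value and the only zeros, on either side of all Vehicle libraries. The log2 change of -1.04 ± 1.00 (SE) had the widest interval of the 9, from 0.105-fold to 2.27-fold. Without PGE2 2 it was -2.33, with an unadjusted p of 0.00577 and a limma adjusted p (Benjamini-Hochberg) of 0.999 over all genes, and it was -0.39 without PGE2 1 or without PGE2 3. Both PGE2 values left without PGE2 2 were exact zeros, which can be failed estimates. That p therefore rests on the floor of the scale. Of 10 fibro-adipogenic genes, 3 reached the filter, and their summed level was 20.8 to 30.6 TPM in Vehicle and 39.4 to 41.4 TPM in PGE2, most of it Col3a1 (15.31 to 36.45 TPM). In PGE2 3, Col1a1 alone added 14.43 TPM, against at most 0.44 TPM in any other library. Col3a1 in PGE2 3, at 24.94 TPM, lay within its Vehicle range of 15.31 to 28.09 TPM, so the gap between the sums rested there on Col1a1. Pi16 was listed at 0 throughout. Ly6a did not follow that sum, since 2 of the 3 PGE2 libraries were at 0, and the part of such cells in its values was not tested.

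Ly6a was also the tested member with the most sequence in common with other genes. Of the 50-base stretches in its GENCODE M21 transcripts, 19.0% also occur in transcripts of other genes, 15.0% in Ly6c1, whereas the share was 0% for Itgb1, Cdh15 and Sdc4 and at most 2.14% for Itga7, Cd34, Ptprc, Pecam1 and Vcam1. The longest run common to both coding sequences, 48 bases, is shown in capitals because a read of at most 48 bases that falls within it fits both genes. It is shorter than the 50-base stretches counted above, so it contains none of them. Bases 325 to 396 of the Ly6a coding sequence and 316 to 387 of that of Ly6c1 are given 5′ to 3′ on the coding strand.
Ly6a: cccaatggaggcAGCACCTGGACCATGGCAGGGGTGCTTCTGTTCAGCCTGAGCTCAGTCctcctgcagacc
Ly6c1: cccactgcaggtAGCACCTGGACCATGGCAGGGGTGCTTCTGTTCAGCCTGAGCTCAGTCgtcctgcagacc
Ly6c1 had Vehicle values of 3.30, 0 and 21.01 TPM and PGE2 values of 0, 0 and 1.72 TPM, so its highest library was Vehicle 3 and it was listed at 0 where Ly6a peaked, in PGE2 2. The level of Ly6a is therefore uncertain to the extent that such reads were divided between the genes.

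Across the members, 0 of 9 passed the limma test (adjusted p under 0.05, Benjamini-Hochberg), each with an adjusted p of 1.00, and 0 had an unadjusted p under 0.05, or 1 (Ly6a) without PGE2 2. Over all 12781 genes the same calls took 0% and 3.63%. Without PGE2 2, 471 of the 12036 genes then tested had an unadjusted limma p under 0.05. Groups did not overlap for 0 of the 9, against 8.01% of all tested genes. The fitted value was lower in PGE2 for 7 of 9 members and for 56.1% of all tested genes, it was higher for 2 and for 43.9%, and the medians were -0.13 and -0.07 on the log2 scale. By median-ratio scaling or quantile normalization it was lower for 5 of 9, since Cd34 and Itgb1 took the opposite sign, at 0.030 and 0.0098 by the former and 0.0033 and 0.0049 by the latter. The intervals bound the changes unevenly: for Itgb1, Vcam1 and Sdc4 they lay within 0.505-fold and 1.56-fold, whereas that of Ly6a reached 0.105-fold and that of Ptprc 4.79-fold.

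**Figure D3:**
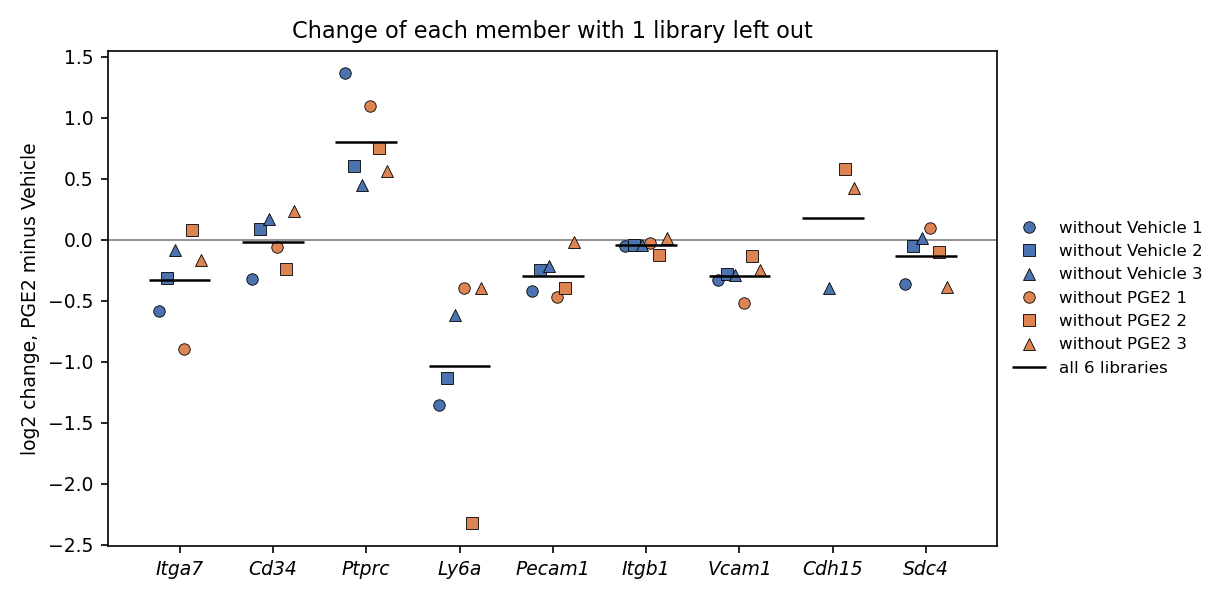
Log2 change of each tested gene, PGE2 minus Vehicle (vertical axis), over all 6 libraries (bar) and with each library left out in turn (points; Cdh15 fell under the filter in 3 of the 6 cases). Ly6a moves from -1.04 to -2.33 without PGE2 2, and Itga7, Cd34, Itgb1, Cdh15 and Sdc4 have points on both sides of 0.

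Replicate libraries spread to different extents for different members. On the log2(TPM + 1) scale, the SD among Vehicle libraries was 0.013 for Itgb1 and 0.051 for Vcam1, against a median of 0.43 over all tested genes. These SDs were at percentiles 0.227 and 1.49 of all tested genes. Among PGE2 libraries the SD was 0.14 for Itgb1 and 0.40 for Vcam1 (median of all genes 0.66), at percentiles 3.58 and 23.5. At the other end stood Ly6a, with 2.23 in PGE2 (percentile 98.1), and Cdh15, with 1.10 in Vehicle (percentile 92.3).

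The SD was larger in PGE2 for 7 of 9 members, Cd34 and Ptprc being the exceptions, and for 69.5% of all tested genes, so a wider spread in PGE2 was common to most genes. The closeness of the Vehicle libraries depended on scaling. With TPM rescaled without mitochondrial genes, the Vehicle SD of Itgb1 was 0.135 and exceeded that in PGE2, 0.123, and the Vehicle SD of Vcam1 was 0.17. No test of a difference in spread was run.

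**Figure D4:**
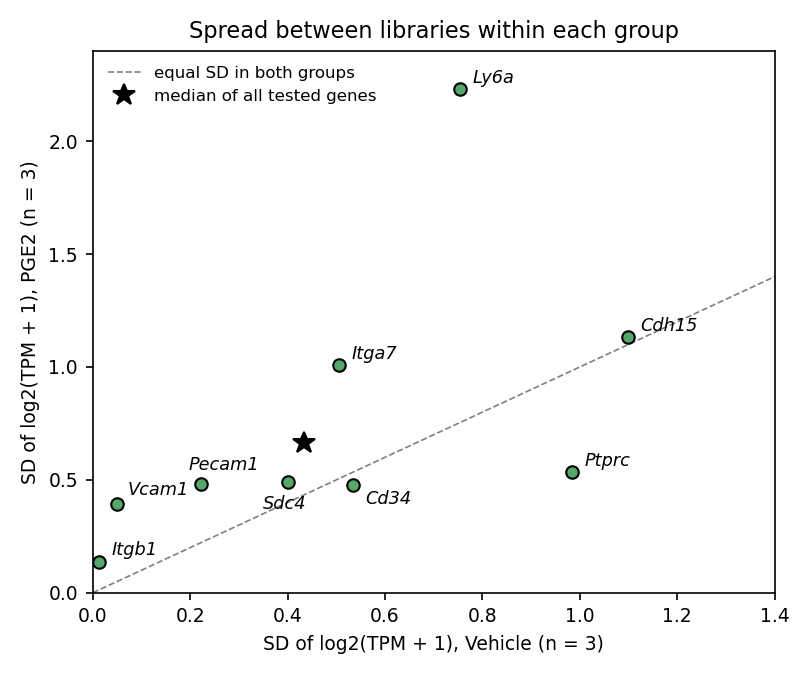
SD of log2(TPM + 1) among the 3 Vehicle libraries (horizontal axis) and the 3 PGE2 libraries (vertical axis) for each tested gene, with the median of all tested genes as a star and equal SDs as a dashed line. Itgb1 and Vcam1 lie at the left edge, Ly6a at the top at 2.23, and Cd34 and Ptprc below the line.

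Genes that work with these proteins were read from the same fit, by lists of their partners. Of 16 other surface genes of satellite cells, all were tested, with fitted values higher in PGE2 for 5 and lower for 11 (median log2 change -0.07), and 0 passed. The tetraspanin gene Cd82 was at 6.77, 11.89 and 6.63 TPM across the Vehicle libraries and at 22.72, 15.19 and 7.97 TPM across the PGE2 libraries. PGE2 1 and PGE2 2 were above all Vehicle libraries and PGE2 3 was not. The calcitonin receptor gene Calcr, a marker of quiescent satellite cells, had Vehicle values of 1.81, 1.03 and 0.17 TPM and PGE2 values of 0.39, 8.45 and 2.86 TPM. The chemokine receptor gene Cxcr4, used as a sort antigen for these cells in other protocols, was at 24.52, 22.93 and 63.95 TPM across the Vehicle libraries and at 13.31, 28.62 and 26.30 TPM across the PGE2 libraries. Both overlapped between the groups.

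Of 14 genes that link integrins to actin, 13 were tested, 3 higher and 10 lower (median -0.10), and 0 passed. Tln1, which encodes talin, the activator that binds the β1 tail, had Vehicle values of 35.05, 39.56 and 40.10 TPM and PGE2 values of 58.03, 39.68 and 10.64 TPM. Its log2 change of -0.37 became 0.32 without PGE2 3. The focal adhesion kinase gene Ptk2 was at 16.85, 15.38 and 17.08 TPM across the Vehicle libraries and at 20.43, 12.48 and 8.95 TPM across the PGE2 libraries. Rsu1, of the ILK, PINCH and parvin complex, had Vehicle values of 32.34, 47.10 and 59.38 TPM and PGE2 values of 76.24, 88.12 and 33.23 TPM. In Tln1 and Ptk2, as in Itga7 and Vcam1, PGE2 1 was the highest of the 6 libraries. Cdh15 (5.15 TPM), Pax7 (66.99 TPM) and Myod1 (146.22 TPM) were also highest there, whereas Myf5 was lowest (119.83 TPM). A peak in PGE2 1 was thus not particular to these genes.

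Of 9 other cadherins, catenins and their partners, 7 were tested, 3 higher and 4 lower (median -0.05), and 0 passed. Cdh11, which encodes a cadherin of mesenchymal cells, was higher in each PGE2 library (19.60, 18.22 and 29.39 TPM) than in each Vehicle library (7.45, 12.23 and 17.89 TPM). The margin was narrow between PGE2 2, at 18.22 TPM, and Vehicle 3, at 17.89 TPM. Its log2 change was 0.84 ± 0.44 (SE), with a limma adjusted p (Benjamini-Hochberg) of 1.00 over all genes. Jup, which encodes plakoglobin, was at 2.66, 3.80 and 4.32 TPM across the Vehicle libraries and at 2.71, 18.66 and 4.60 TPM across the PGE2 libraries, so 1 library held its difference.

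Of 10 syndecans and genes that bind or build them, all were tested, 2 higher and 8 lower (median -0.33), and 0 passed. Ext1 and Ext2 encode the polymerase that makes heparan sulfate chains. Ext1 was lower in each PGE2 library (17.63, 7.17 and 15.57 TPM) than in each Vehicle library (17.80, 18.54 and 31.63 TPM), by a margin of less than 1 TPM between PGE2 1 and Vehicle 1. Its log2 change was -0.75 ± 0.46 (SE), with an adjusted p of 1.00 by the same limma test. Ext2 had Vehicle values of 9.16, 41.85 and 34.08 TPM and PGE2 values of 17.85, 4.18 and 12.71 TPM and overlapped. Prkca, which encodes the kinase that syndecan-4 recruits, was at 13.16, 12.39 and 5.84 TPM across the Vehicle libraries and at 13.13, 0 and 6.51 TPM across the PGE2 libraries, and its log2 change of -1.20 was -0.08 without PGE2 2, the library listed at 0. Groups did not overlap for 0 of 16, 0 of 13, 1 of 7 (Cdh11) and 1 of 10 (Ext1) tested genes of the 4 lists in the order given, against 8.01% of all tested genes.

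Genes with the profile most like that of the antigens selected for were sought among 8369 genes that averaged at least 5 TPM. Likeness was the root mean square distance between centred log2(TPM + 1) values over the 6 libraries. Among the 3 closest to Cd34 were Gm13456 (0.10) and Ppp1r15a (0.10). Ppp1r15a, which encodes a regulatory subunit of protein phosphatase 1, had Vehicle values of 2.73, 6.45 and 7.99 TPM and PGE2 values of 5.20, 6.79 and 3.66 TPM. Closest to Itga7 were Gm12844 (0.11), Ppp1r8 (0.13) and Cep68 (0.13). Ppp1r8, which encodes a nuclear inhibitor of protein phosphatase 1, was at 14.79, 22.11 and 32.98 TPM across the Vehicle libraries and at 37.24, 12.02 and 14.91 TPM across the PGE2 libraries. With 6 libraries and so many genes searched, close matches arise readily, and these are given as a description.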

How the data were processed

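The deposited table gives TPM, 1 column per library, for 43283 genes; the unit was inferred from the values the authors deposited, with column sums of 992357 to 995645. STAR, RSEM and the build mm10 are named in the submitters' processing notes; versions, settings and annotation are not given there. Per the labels' protocols, RNA was extracted with a Qiagen micro kit and amplified as cDNA with NuGEN Ovation before Illumina library construction.

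The 12781 genes that reached 1 TPM in 3 or more libraries were fitted on log2(TPM + 1) with limma 3.58.1 in R 4.3.3 (mean trend, not robust, two-sided, Benjamini-Hochberg over all tested genes, threshold 0.05), checked on simulated data. Fold changes on that scale understate changes of low genes. Named genes are the 10 members, 3 genes per partner list with the smallest p, fixed lineage markers and 3 genes most like Itga7 and Cd34; Ly6c1, Sdcbp, Sdc1, Sdc2, Sdc3 and the other marker-list genes named were chosen after their values were seen. Of the genes this rule names, 2 are not reported here. Members and lists were chosen with earlier results of these data known. Positions and transcripts are from GENCODE M21 on mm10. Python 3.11.15 made tables and figures. Alternatives covered pseudocount, filter, scaling, variance prior, library weights, a replicate block and each library left out. No 2 libraries were identical.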

Additional observations from a re-analysis of the deposited data

How the results depend on the processing

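No member and no gene of the 4 partner lists passed limma's test in those of the 17 alternatives in which it was tested (5 members with the filter of 5 TPM, 8 without Vehicle 1, Vehicle 2 or PGE2 1, 10 with no filter and 9 otherwise), with adjusted p between 0.629 and 1.00 for the genes named. Over all genes, 0 passed in the fit reported, 1 with a robust variance prior and 4 without a mean trend, and between 0 and 1 with a library left out. The number with an unadjusted p under 0.05 was 464, and it was 929 without PGE2 1, 716 without PGE2 3, 280 without Vehicle 2, 272 without Vehicle 3 and 257 with the filter of 5 TPM, which tests fewer genes. Of the members, 0 were among the 464. Without PGE2 2, 471 of 12036 genes had such a p. Among them was 1 member, Ly6a (0.00577 by limma), whose remaining PGE2 values were both 0.

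Ptprc, Ly6a, Pecam1 and Vcam1 kept the sign of their log2 change under the alternatives in which they were tested. By median-ratio scaling and quantile normalization Cd34 (-0.02) turned to 0.030 and 0.0033, and Itgb1 (-0.05) to 0.0098 and 0.0049. Cdh15 (0.18) turned to -0.14 with library weights. With a library left out, the sign turned within a range of -0.33 to 0.24 for Cd34 (without Vehicle 2, Vehicle 3 or PGE2 3), -0.12 to 0.012 for Itgb1 (without PGE2 3), -0.39 to 0.58 for Cdh15 (without Vehicle 3), -0.39 to 0.10 for Sdc4 (without Vehicle 3 or PGE2 1), -0.89 to 0.076 for Itga7 (without PGE2 2) and -0.85 to 0.32 for Tln1 (without PGE2 3). The cause was not tested. The change of Ly6a depended most on the pseudocount, from -2.96 at 0.1 TPM to -0.25 at 5 TPM. Its mean TPM hardly differed between the groups, at 4.51 in Vehicle and 4.52 in PGE2. The mean sum of the 4 antigens selected against rose from 7.92 to 11.2 TPM in Vehicle when mitochondrial genes were left out of the total, as any nuclear gene does by construction, and ran from 6.78 to 8.85 TPM with a Vehicle library left out and from 5.34 to 12.8 TPM with a PGE2 library left out.

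The replicate number as a block left 0 genes passing (482 with an unadjusted p under 0.05) and no member past the threshold. Deviations from the group means correlated at -0.06, -0.04 and 0.07 across genes for numbers 1, 2 and 3, and 1 of the 3 numbers was the best match for its own partner. With 3 libraries per group this check cannot decide whether equal numbers mark a shared sort or batch. The mitochondrial share rose with the number in both groups, from 20.9% to 33.6% in Vehicle and from 23.0% to 30.4% in PGE2. Scalings and pseudocounts for the spread of the members were added after seeing the data, and 5 to 7 of the 9 had the larger SD in PGE2. TPM does not keep depth, so counting error of the low antigens is unknown.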

Other observations

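Sdcbp encodes syntenin, the adaptor that binds the cytoplasmic tails of syndecans, and was chosen after its values were seen. It had Vehicle values of 407.53, 495.37 and 622.12 TPM and PGE2 values of 235.98, 490.95 and 607.52 TPM. For comparison, Sdc4 was at 201.71, 310.57 and 340.32 TPM and at 183.51, 243.40 and 363.07 TPM. Both genes were lowest in PGE2 1, next lowest in Vehicle 1, and highest in Vehicle 3 and PGE2 3. The mitochondrial share was also low in Vehicle 1 and PGE2 1, at 20.9% and 23.0%. The other 3 syndecans of the list, also chosen after their values were seen, differed. Sdc2 had Vehicle values of 34.04, 30.77 and 52.93 TPM and PGE2 values of 28.42, 35.95 and 34.11 TPM, lowest in PGE2 1 and highest in Vehicle 3. Sdc1 was at 24.14, 18.92 and 13.12 TPM with Vehicle and at 44.38, 20.23 and 7.11 TPM with PGE2, highest in PGE2 1 and lowest in PGE2 3. Sdc3 was at 15.81, 13.60 and 18.99 TPM with Vehicle and at 30.50, 16.58 and 11.31 TPM with PGE2, highest in PGE2 1 but, among the Vehicle libraries, in Vehicle 3. These are 6 libraries and no test of the relation was made.

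PGE2 3 held single high values of genes from several cell types: Emcn at 15.27 TPM, the collagen gene Col1a1 at 14.43 TPM and Itgam at 2.44 TPM. In the other 5 libraries Emcn was at most 0.87 TPM, Col1a1 at most 0.44 TPM and Itgam at most 0.43 TPM. Other genes of the same cell types went either way in PGE2 3. Pecam1 was at its lowest of the 6 libraries, 0.27 TPM, and Col1a2 and Itgb2 were listed at 0. Ptprc (4.81 TPM), Csf1r (4.07 TPM), Cd14 (3.30 TPM), Cd3e (1.21 TPM) and Tyrobp (1.12 TPM) were at their highest, as was the summed leukocyte list, at 11.02 TPM. Of the same list, Cd68, Fcer1g, Lyz2, Spi1, Cd79a and Adgre1 were listed at 0 in PGE2 3. Laptm5 was at 1.32 TPM there, against 6.45 TPM in PGE2 1. The summed endothelial list was also highest in PGE2 3, at 19.84 TPM, but Emcn itself made up 15.27 TPM of that sum. The endothelial genes Eng (2.54 TPM) and Kdr (1.34 TPM) were lower in PGE2 3 than in PGE2 2 (6.44 and 1.57 TPM). Both were nevertheless above every Vehicle library, where Eng reached 1.57 TPM and Kdr 0.85 TPM.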
